A study of Homo sapiens with 28 samples.

Results

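The genes described here are the 182 zinc finger genes of chromosome 19 whose symbol is ZNF followed by a number and that could be measured in acute myeloid leukaemia (AML) cell lines, out of 11676 genes measured in all. A gene was included when the RefSeq gene table placed it on chromosome 19 and the array carried a probe set (a group of probes for 1 transcript) annotated with its symbol alone. ZNF818P was left out, and a gene with several probe sets was represented by the one with the highest mean over all arrays. The members comprised 173 protein-coding genes, 6 long non-coding RNAs named after a ZNF gene, and 3 transcribed pseudogenes. The gene table lists 304 such ZNF symbols on chromosome 19. Expression values are log2 array signals, so a difference of 1 is a 2-fold change.

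RNA came from 7 established human AML lines: MOLM13, SKNO1, THP1, SHI1, NOMO1, SKM1 and GDM1. The cells spent 96 hours (4 days) with either 1 µM GSK3484862, which inhibits DNMT1, the enzyme that maintains DNA methylation through cell division, or its vehicle, 0.1% DMSO. The design gives biological duplicates, and the 14 groups of 2 filled 28 arrays of the Affymetrix Human Genome U133 Plus 2.0 type. Every group is 1 line at 1 dose and 1 time, and no DNA methylation was measured in the values used here.

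Most ZNF genes of chromosome 19 encode KRAB zinc finger proteins, transcriptional repressors whose zinc finger arrays bind DNA and whose KRAB domain recruits the co-repressor TRIM28. TRIM28 in turn brings in the histone H3 lysine 9 methyltransferase SETDB1, heterochromatin proteins and DNA methylation, and many of the bound sequences are transposable elements. The genes lie in clusters that grew by tandem duplication, so neighbours are often close relatives, and their bodies and 3′ ends carry heterochromatin marks in many cell types. Cross-hybridisation between relatives is a known limit of probes for this family, and 30 of the 182 members were represented by a probe set of the type that the array maker marks as prone to it.

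Array medians lay between 8.33 and 8.51, duplicate arrays correlated at r = 0.990 to 0.998 across probe sets, and the lowest value in the table was 2.13. The haematopoietic markers PTPRC, at 11.2 to 12.96, and SPI1, at 8.89 to 10.2, were measured in the DMSO arrays of all 7 lines. MPO, a blast and granulocyte marker, ranged from 6.94 in THP1 to 15.5 in SKM1, and CD33 and CD34 were not analysed here. The T-cell marker CD3D, the 1 of 4 listed that was measured, stood at 14.6 in GDM1 against 3.78 to 9.16 in the other lines. KIT, also on the myeloid list, read 3.14 in MOLM13 and 3.19 in SHI1, and at least 9.43 elsewhere. The fibroblast marker COL1A1 read 9.15 to 9.58. Of the epithelial markers, KRT8 read 4.99 to 5.71. KRT18 read 10.3 in NOMO1, 8.41 in SHI1 and 7.97 in MOLM13, but 3.14 to 3.17 elsewhere. Levels of different probe sets are not comparable, so these markers were no test of cell identity. Between replicate arrays the members varied more than all genes did in every group, from an SD of 0.191 in treated NOMO1 to 0.478 in DMSO-treated SKM1.

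The untreated lines differed widely in which members they expressed. The difference between the highest and lowest DMSO group mean of a member had a median of 2.11, against 1.68 over all genes. This range reached 4 or more for 44 members (24.2%), against 19.2% of all genes. ZNF91, whose protein binds SVA retrotransposons, had the widest range, 9.98. Its DMSO arrays read 12.03 and 12.19 in SKNO1 but 2.62 and 2.90 in MOLM13, 2.14 and 2.14 in SHI1, and 2.13 and 2.13 in NOMO1. Its probe set was therefore at the bottom of the measured scale in NOMO1 and close to it in SHI1. In 26 members all 4 arrays of at least 1 line lay within 0.05 of that probe set's lowest value, and such flat readings were counted 18 times in NOMO1, 17 in MOLM13, 13 in SHI1 and 4 in SKNO1. A flat reading gives only an upper limit to the level.

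Averaged over the 7 lines, 56 members rose and 16 fell with GSK3484862, that is 30.8% and 8.79% of the 182. Over all genes tested, 23.2% rose and 28.6% fell. The median change of the members was 0.10 and that of all genes -0.02. Of 208 ZNF genes on other chromosomes, 34 rose and 57 fell (median -0.03). The other 643 genes of chromosome 19 had 188 rises and 161 falls (median 0.01). Of 5 chromosome 19 genes named ZFP, ZFP36 (0.35) and ZFP28 (0.30) rose on average. Changes were small: of the members that rose on average, 1 reached 2-fold, the non-coding ZNF582-DT. These p-values come from limma with Benjamini-Hochberg adjustment and measure the spread between duplicates of these 7 lines. With each line taken as 1 unit instead, 4 of the 182 members rose and 3 fell. Of all 11676 genes, 296 rose (2.54%) and 529 fell (4.53%). The members' share of rises was then not above that of all genes. ZNF582-DT was not among the 4. The median change was 0.05 with MOLM13 left out.

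The lines contributed very unequally. In MOLM13, 55 members rose (30.2%, against 13.7% of all genes) and 5 fell (2.75%, against 15.4%), with a median change of 0.22 against -0.01 over all genes. In GDM1, 18 rose (9.89%, against 13.3%) and 11 fell (6.04%, against 20.5%). SKM1 had 13 rises (7.14%, against 14.1%) and 17 falls (9.34%, against 14%). THP1 had 13 rises (7.14%, against 5.4%) and 4 falls (2.2%, against 8.3%). NOMO1 had 11 rises (6.04%, against 4.21%) and 3 falls (1.65%, against 7.55%). SHI1 had 6 rises (3.3%, against 2.52%) and 1 fall (0.549%, against 0.899%). SKNO1 had 5 rises (2.75%, against 2.96%) and 1 fall (0.549%, against 3.12%), and held the largest single change of the whole set. These shares were near the background for the rises of THP1, NOMO1, SHI1 and SKNO1, and no test was made of the members' share in any line.

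**Figure D1:**
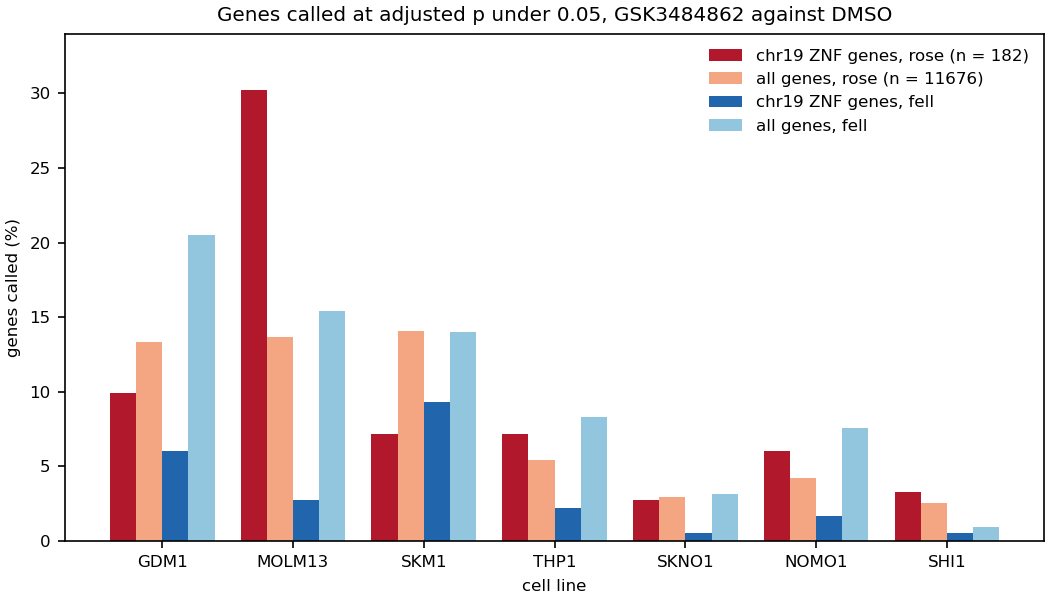
Share of genes called higher (red) or lower (blue) with GSK3484862 than with DMSO in each cell line, in percent, for the 182 chromosome 19 ZNF genes (dark) and all 11676 genes (light). MOLM13 stands apart with 30.2% of members higher against 13.7% of all genes, while in GDM1 and SKM1 the members' shares lie below those of all genes in both directions.

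Single-line counts rested on duplicates and moved with single arrays. The THP1 total of 17 calls became 6 to 11 when 1 of its own 4 arrays was left out. The rises in THP1, 13, became 4 without DMSO replicate 1 and 5 without treated replicate 1. NOMO1's 14 became 6 without DMSO replicate 2 and 5 without treated replicate 1, with 3 rises in place of 11. SKM1's 30 became 20 without treated replicate 1, with 14 rises and 6 falls in place of 13 and 17. SHI1's 7 became 4 without either DMSO array and 3 without treated replicate 1, and GDM1's 29 became 19 without either DMSO array. Of the calls in a single line, those made whichever of that line's 4 arrays was left out were 33 of 60 in MOLM13, 7 of 29 in GDM1, 6 of 30 in SKM1, 3 of 17 in THP1, 3 of 14 in NOMO1, 3 of 7 in SHI1 and 3 of 6 in SKNO1. When a line's own 4 arrays were fitted alone, with limma and Benjamini-Hochberg adjustment, MOLM13 gave 36 called members (19.8%, against 17.6% of all genes called there) and GDM1 23 (12.6%, against 20.1%). SKM1, THP1, SKNO1, NOMO1 and SHI1 gave 0 members, against 0.454% of all genes in SKM1, 0.0171% in THP1 and 0% in SKNO1, NOMO1 and SHI1. At an unadjusted p under 0.05 these 5 lines had 22, 47, 25, 29 and 37 members.

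The changes differed between lines in 49 members (26.9%, moderated F-test in limma), against 37.5% of all genes. With MOLM13 left out this count was 27. Against the mean of the other 6 lines, MOLM13 was higher in 36 members (19.8%, background 7.24%) and lower in 2 (1.1%, background 4.11%), the latter being ZNF556 and ZNF582-DT. GDM1 was higher in 9 (4.95%, background 8.88%) and lower in 7 (3.85%, background 14.2%), and SKM1 higher in 1 (0.549%, background 7.25%) and lower in 9 (4.95%, background 4.83%). THP1 was higher in 4 and lower in 1, with backgrounds of 1.42% and 2.3%. SKNO1 was higher in 4 and lower in 5 (backgrounds 3.49% and 3.99%), NOMO1 in 1 and 4 (2.34% and 3.52%), and SHI1 in 2 and 6 (2.64% and 1.69%). This comparison of each line with the rest was chosen after the data had been seen.

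ZNF274 was the member with the broadest rise. Its protein is a KRAB zinc finger factor that recruits SETDB1 to the 3′ ends of zinc finger genes, chromosome 19 among them. It was called higher in 6 of 7 lines, which 0.214% of all genes were. The DMSO arrays of MOLM13 read 9.26 and 9.13 and its treated arrays 10.88 and 10.99, a change of 1.73 ± 0.12 (SE, adjusted p = 1.82e-08). In SKM1 the arrays went from 8.95 and 9.21 to 9.94 and 10.29 (1.04, adjusted p = 1.05e-05). No treated array of these lines overlapped the DMSO arrays of its line. GDM1 read 8.89 and 8.66 under DMSO and 9.58 and 9.43 under the inhibitor (0.73, adjusted p = 1.81e-04). SHI1 read 9.59 and 9.84, then 10.48 and 10.41 (0.73, adjusted p = 0.00199). NOMO1 read 9.49 and 9.65, then 10.29 and 10.24 (0.70, adjusted p = 0.00128). The smaller responses were in the 2 lines with the highest untreated readings of this probe set. THP1 went from 10.90 and 10.99 to 11.44 and 11.38 (0.46, adjusted p = 0.0192), a call lost when any 1 of its 4 THP1 arrays was left out. SKNO1 went from 10.74 and 10.73 to 10.91 and 11.06 (0.25, adjusted p = 0.291), the 1 line where it was not called. The average change was 0.81 ± 0.05 (adjusted p = 1.16e-09), and a second ZNF274 probe set gave 0.77. The call on the average held in every alternative that was run, with lines as units included.

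Promoter sequences are shown for ZNF274, ZNF582-DT and ZNF347, which were among the 4 members with the largest average rise (ZNF137P had no window), and for the largest MOLM13 rises, ZNF586 and ZNF550, because CpG sites are the substrate of the enzyme inhibited. Each window runs from 250 bases before to 50 bases after the transcription start in RefSeq (GRCh38.p14), is printed 5′ to 3′ on the gene's strand, and has its CpG dinucleotides in capitals. The ZNF274 window lies at chr19:58182811-58183110 on the plus strand, that of ZNF586 at chr19:57769426-57769725 on the plus strand, that of ZNF550 at chr19:57559814-57560113 on the minus strand, that of ZNF582-DT at chr19:56393426-56393725 on the plus strand, and that of ZNF347 at chr19:53159004-53159303 on the minus strand.
ZNF274: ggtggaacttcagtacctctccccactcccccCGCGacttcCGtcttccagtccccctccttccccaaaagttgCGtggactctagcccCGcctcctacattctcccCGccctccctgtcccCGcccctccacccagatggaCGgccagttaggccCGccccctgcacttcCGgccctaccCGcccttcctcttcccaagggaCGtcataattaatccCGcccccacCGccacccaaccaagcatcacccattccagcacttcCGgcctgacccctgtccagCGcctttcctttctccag
ZNF586: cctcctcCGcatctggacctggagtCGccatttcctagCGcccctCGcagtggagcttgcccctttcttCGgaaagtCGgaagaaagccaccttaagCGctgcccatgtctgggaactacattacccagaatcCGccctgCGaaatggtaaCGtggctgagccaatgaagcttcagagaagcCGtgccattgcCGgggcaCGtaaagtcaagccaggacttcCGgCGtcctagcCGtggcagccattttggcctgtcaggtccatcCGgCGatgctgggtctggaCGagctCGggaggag
ZNF550: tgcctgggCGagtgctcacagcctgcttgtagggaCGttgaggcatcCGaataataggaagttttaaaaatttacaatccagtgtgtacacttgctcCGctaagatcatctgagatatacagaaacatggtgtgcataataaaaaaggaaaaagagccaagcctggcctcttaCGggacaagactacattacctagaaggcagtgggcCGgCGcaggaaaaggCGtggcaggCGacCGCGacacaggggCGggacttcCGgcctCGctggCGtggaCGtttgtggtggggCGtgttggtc
ZNF582-DT: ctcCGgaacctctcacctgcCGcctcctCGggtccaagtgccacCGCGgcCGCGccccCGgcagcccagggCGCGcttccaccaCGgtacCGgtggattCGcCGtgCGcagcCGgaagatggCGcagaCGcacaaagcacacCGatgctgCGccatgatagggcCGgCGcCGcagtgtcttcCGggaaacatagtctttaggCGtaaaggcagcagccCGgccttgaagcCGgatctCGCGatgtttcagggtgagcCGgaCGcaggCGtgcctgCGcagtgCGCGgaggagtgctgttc
ZNF347: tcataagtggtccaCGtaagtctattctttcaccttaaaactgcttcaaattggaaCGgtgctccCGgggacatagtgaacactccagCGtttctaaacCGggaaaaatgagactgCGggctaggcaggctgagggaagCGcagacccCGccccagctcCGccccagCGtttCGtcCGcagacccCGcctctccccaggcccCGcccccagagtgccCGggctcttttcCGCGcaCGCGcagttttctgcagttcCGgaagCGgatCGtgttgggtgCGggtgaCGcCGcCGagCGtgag
The windows hold 16, 20, 17, 35 and 27 CpG sites in this order. The ZNF582-DT window shares 241 bases, with 27 of its CpG sites, with the window of ZNF582, the protein-coding gene read in the opposite direction from the other strand.

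CpG-dense starts were common in the set. A window was found for 159 of the 182 members, and its median CpG count was 21, from 2 to 37, against 14 over 27305 RefSeq promoters of the same length. Of the members' windows, 77.4% were CpG rich (GC above 50% and observed over expected CpG above 0.6), against 46.8% of all promoters. The ETS-type motif CCGGAAG, searched on both strands, was in 46.5% of the members' windows against 10.7% of all. The YY1-type motif AAGATGGC, which can overlap the ETS motif by its first 3 bases, was in 8.81% against 3.03%. The letters TATAAA were in 2.52% against 12.0%. The 27305 background windows were not limited to protein-coding or measured genes, whereas 173 of the 182 members are protein coding. Whether these differences reflect gene type was not tested. All 5 printed windows hold the ETS motif. In MOLM13, 40 of 123 members with a CpG-rich window rose (32.5%) and 8 of 36 without (22.2%), and on average 39 (31.7%) and 8 (22.2%) did. In the other lines, rises were counted among the same 123 members with such a window and 36 without. These rises were 16 and 1 in GDM1, 10 and 0 in SKM1, and 9 and 0 in THP1. They were 9 and 0 in NOMO1, 4 and 0 in SKNO1, and 4 and 1 in SHI1. The larger set would hold most rises even without any association, so these counts alone do not show one. The falls with and without were 3 and 2 in MOLM13, 5 and 4 in GDM1, 9 and 5 in SKM1, and 2 and 2 in THP1. They were 3 and 0 in NOMO1, 1 and 0 in SKNO1, 1 and 0 in SHI1, and 11 and 3 on average. Split at the median CpG count, 22 of 81 members at or above it rose in MOLM13 (27.2%) and 26 of 78 below it (33.3%). On average 22 (27.2%) and 25 (32.1%) did. In the other lines the rises among the same 81 and 78 members were 9 and 8 in GDM1, 7 and 3 in SKM1, and 7 and 2 in THP1. They were 4 and 5 in NOMO1, 3 and 1 in SKNO1, and 3 and 2 in SHI1. No matching shares over all genes were computed, and these differences were not tested. Across the 159 members the number of CpG sites correlated with the MOLM13 change at r = -0.12 and with the average change at r = -0.02. These correlations are across genes that share the same arrays and are given as a description.

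Several of the largest MOLM13 rises were in members that most other lines expressed at a higher level. ZNF586 had the highest value: its DMSO arrays read 5.80 and 4.35 and its treated arrays 7.78 and 7.84, a change of 2.74 ± 0.28 (SE, adjusted p = 2.11e-06). In the other lines its changes lay between -0.24 and 0.31 and none was called, although SHI1 was lower still under DMSO, at 3.15 and 3.23, and read 3.60 and 3.39 under the inhibitor. The ZNF586 SE pools all 14 groups, and its MOLM13 call was lost when that line was fitted alone. ZNF550, which lies in the same stretch of the chromosome, went from 5.08 and 4.46 to 7.15 and 7.19 in MOLM13 (2.40 ± 0.19, adjusted p = 8.44e-08). In the other lines its DMSO arrays were between 7.07 and 10.05, above both untreated MOLM13 arrays, and its changes lay between -0.47 and 0.11. For both genes a second probe set, near the bottom of the scale, changed little in MOLM13 (0.14 for ZNF586 and 0.03 for ZNF550). ZNF155 read 2.88 and 3.64, then 5.33 and 5.48 in MOLM13 (2.15, adjusted p = 2.95e-05). It also rose in SKM1, from 3.43 and 3.93 to 5.01 and 4.64 (1.14, adjusted p = 0.0062), and was not called in GDM1, where DMSO readings of 3.25 and 2.50 were as low. The SKM1 call was lost without DMSO replicate 1 or without treated replicate 1.

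ZNF350, ZNF585A and ZNF264 also had their largest rise in MOLM13. ZNF350, also called ZBRK1, encodes a KRAB repressor known as a BRCA1 partner, and went from 6.06 and 4.80 to 7.41 and 7.63 in MOLM13 (2.09, adjusted p = 3.35e-05). Its second probe set gave 2.096. ZNF585A went from 6.07 and 5.97 to 7.88 and 8.18 (2.01, adjusted p = 2.69e-08), and its 2 further probe sets gave 2.07 and 1.93. Untreated MOLM13 was the lowest of the 7 lines for ZNF585A, since no DMSO array of another line fell below 7.19. ZNF264 went from 6.37 and 6.06 to 8.17 and 7.91 (1.82, adjusted p = 1.38e-08), again from the lowest DMSO readings of any line. It rose by smaller amounts in GDM1 (0.40), SKM1 (0.53) and THP1 (0.44), and its change was 0.01 in SKNO1, where it started highest at 9.56 and 9.86. The SKM1 call held without any 1 of that line's arrays, and those in GDM1 and THP1 did not. Of its 2 further probe sets, 1 gave 1.77 in MOLM13 and the other, near the bottom of the scale, 0.02.

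In MOLM13, 25 of the 182 members rose at least 2-fold, and 532 of all 11676 genes did (4.56%). Among the genes that rose there, these were 25 of 55 members and 532 of 1596 genes. MOLM13 had the lowest DMSO mean of the 7 lines in 16 of the 55, and in 37 of all 182 members. Its DMSO mean was below the median of the other lines' DMSO means in 41 of the 55. After treatment 23 remained below that median, and 10 stood above the highest DMSO mean of any other line. These members were chosen by their MOLM13 change, which uses the same DMSO arrays as these levels. A low DMSO reading raises the change, so the counts are a description only, and the same holds for the single genes above. Apart from the lowest mean, no matching count over all members was made. In the other lines the same 55 members had median changes of 0.26 in GDM1, 0.13 in SKM1, 0.19 in THP1, 0.19 in NOMO1, 0.07 in SHI1 and 0.01 in SKNO1. All 1596 genes that rose in MOLM13 had medians of 0.19, 0.27, 0.17, 0.13, 0.14 and 0.05 in these lines. The members called in either direction in MOLM13 had 49 further probe sets, of which 48 had the same sign there, 23 were called the same way and 0 the opposite way. Of the MOLM13 markers, MPO rose by 2.74 as well, the 1 of 6 measured myeloid markers that was called there (median of the 6, 0.29), and its part in the members' rise was not tested.

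**Figure D2:**
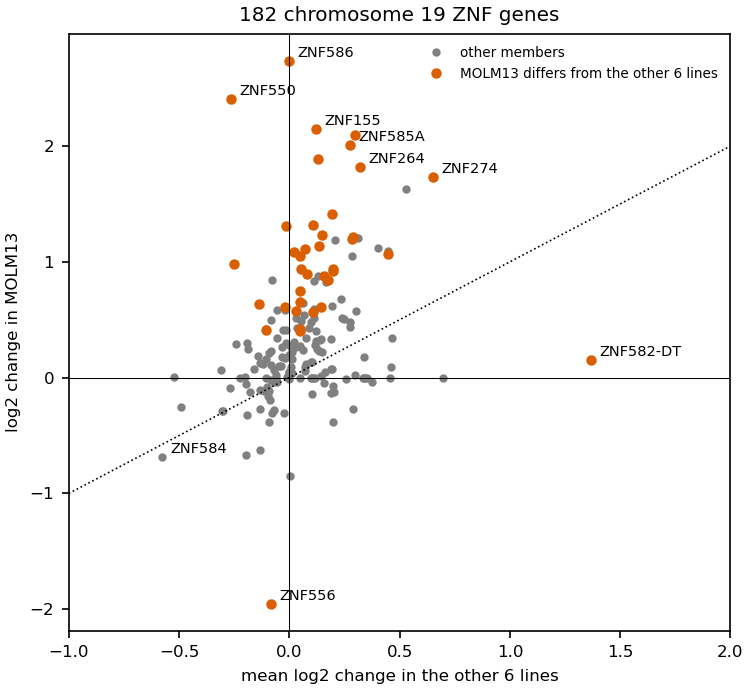
Each point is 1 of the 182 members, with its mean log2 change in the other 6 lines on the x axis and its log2 change in MOLM13 on the y axis; the dotted line marks equal change, and orange points are the 38 members for which MOLM13 differed from the other 6 lines at an adjusted p under 0.05. Most orange points lie above the line with small changes elsewhere, such as ZNF586 at 2.74, whereas ZNF556 and ZNF582-DT lie below it.

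**Figure D3:**
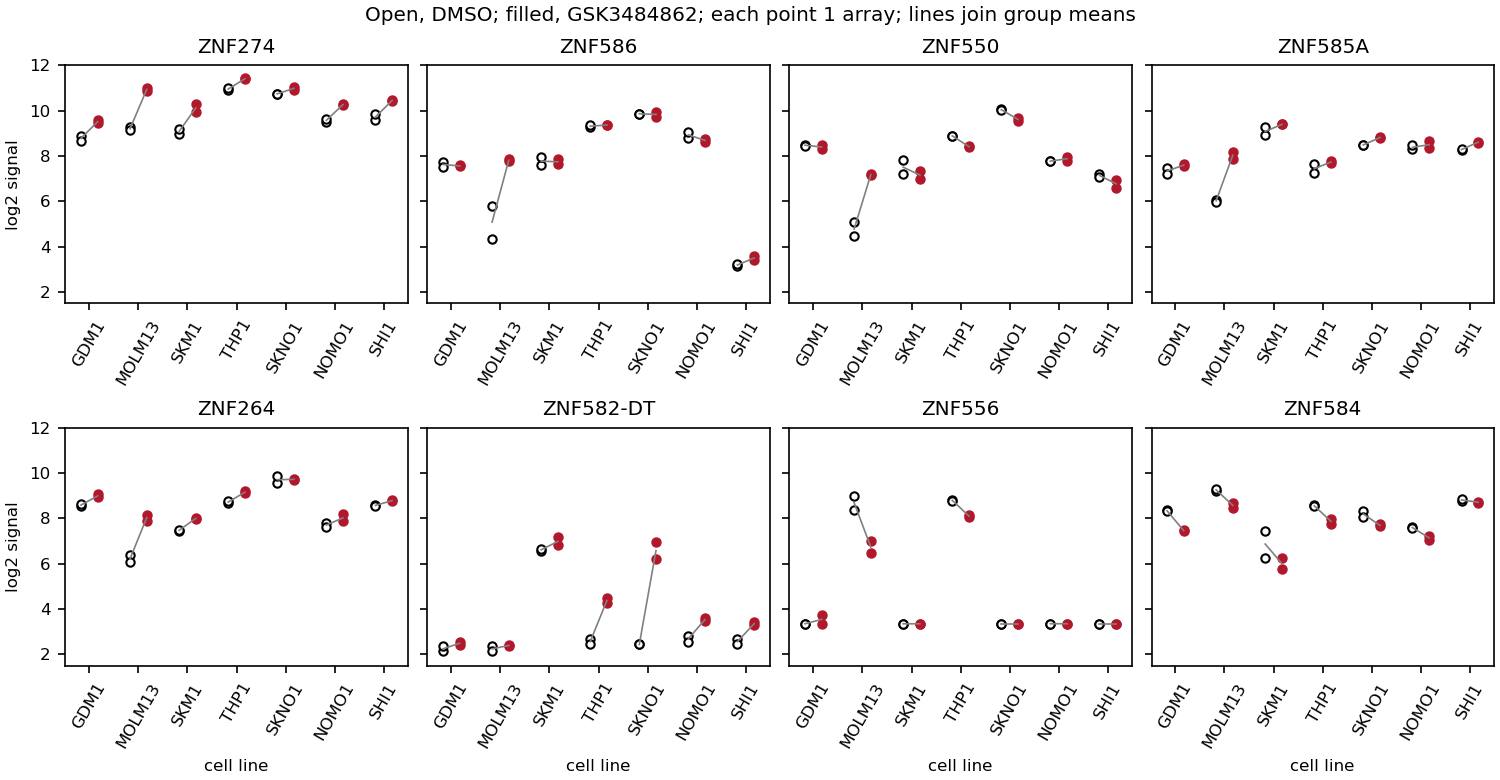
Log2 signal of 8 members in each of the 28 arrays, by cell line; open circles are DMSO, filled circles GSK3484862, and grey lines join the means of the duplicates. ZNF274 rose in nearly every line, ZNF586, ZNF550, ZNF585A and ZNF264 mainly in MOLM13, ZNF582-DT mainly in SKNO1 and THP1, and ZNF556 and ZNF584 fell. Levels can be compared between lines within a panel but not between panels, which show different probe sets.

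Members that a line expressed far below another line rose there about as often as members did in all lines. There were 128 pairs of a member and a line in which the DMSO mean lay at least 4 below that of the line expressing it most. In 13 of these pairs (10.2%) the member rose, while over all 1274 pairs of a member and a line there were 121 rises (9.5%). Over all genes the share was 15.4% of 6574 such pairs and 8.02% of all 81732 pairs, and the median change in the low pairs was 0.00 in both sets. MOLM13 held 38 of the 128 pairs, with 6 rises (ZNF550, ZNF586, ZNF600, ZNF615, ZNF738 and ZNF91). NOMO1 held 25 with 1 rise (ZNF256), SHI1 23 with 3 (ZNF542P, ZNF544 and ZNF582-DT), and GDM1 16 with 0. SKNO1 held 10 with 2 (ZNF582-DT and ZNF585B), SKM1 9 with 0, and THP1 7 with 1 (ZNF582-DT). Over all members the share that rose was 30.2% in MOLM13, 9.89% in GDM1 and 7.14% in both SKM1 and THP1. It was 6.04% in NOMO1, 3.3% in SHI1 and 2.75% in SKNO1. The pooled shares mix these lines, so they do not compare low members with others of the same line. ZNF91 itself read 3.14 and 4.79 after treatment of MOLM13 (1.20, adjusted p = 0.00893, not called without DMSO replicate 1 or treated replicate 2) and stayed at 2.13 in both treated NOMO1 arrays. The limit of 4 was set after the data had been seen.

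The largest change of any member was that of ZNF582-DT, a long non-coding RNA transcribed divergently from ZNF582. In SKNO1 its DMSO arrays both read 2.44, close to the bottom of the scale, and its treated arrays 6.21 and 6.96, a change of 4.14 ± 0.19 (SE, adjusted p = 2.76e-10). In THP1 it went from 2.68 and 2.45 to 4.48 and 4.28 (1.81, adjusted p = 1.16e-05). Smaller rises were called in NOMO1, from 2.83 and 2.56 to 3.62 and 3.46 (0.84, adjusted p = 0.00767), and in SHI1, from 2.69 and 2.44 to 3.30 and 3.41 (0.79, adjusted p = 0.026). The NOMO1 call was lost without DMSO replicate 2 or treated replicate 1 and the SHI1 call without any 1 of its 4 arrays, while those in SKNO1 and THP1 held. The SE pools all 14 groups. With SKNO1 or THP1 fitted on its own 4 arrays the call was lost, where 0 and 2 of all genes were called. ZNF582-DT remained at 2.36 to 2.56 in the treated arrays of GDM1 and MOLM13. SKM1 was the 1 line that expressed it untreated, at 6.57 and 6.66, and was not called (0.37, adjusted p = 0.157). A second probe set gave 3.65 in SKNO1. The average change over the 7 lines, 1.19, was not called with lines as units. The F-test between lines gave it the smallest adjusted p of any member, 8.15e-08. The coding partner ZNF582 rose in SKNO1 too, from 6.70 and 6.53 to 7.63 and 7.35 (0.88, adjusted p = 0.0201), and in GDM1 (0.58, adjusted p = 0.0462), where ZNF582-DT was not called. The SKNO1 call of ZNF582 was lost without either DMSO array or treated replicate 1, and its GDM1 call without any 1 of that line's arrays.

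Other rises were strongest in lines other than MOLM13. ZNF347 was flat at 2.13 in all arrays of GDM1, MOLM13, NOMO1 and SHI1, which lowers its pooled spread. It rose in SKNO1 from 4.30 and 3.72 to 5.95 and 6.82 (2.38, adjusted p = 4.41e-04), and in SKM1 from 3.54 and 2.15 to 4.57 and 4.38 (1.63, adjusted p = 0.00235). The SKM1 value ranged from 0.93 to 2.33 when 1 of its arrays was left out, with the call kept. Its average change of 0.60 was no longer called without SKNO1 or with lines as units. ZNF585B, the neighbour and close relative of ZNF585A, had another pattern: it rose in SKNO1 from 2.73 and 2.76 to 3.71 and 4.76 (1.49, adjusted p = 3.41e-04) and was not called in MOLM13 (0.34). ZNF829 rose in THP1, from 5.75 and 5.00 to 7.02 and 6.87 (1.57, adjusted p = 6.05e-05), and in SHI1, from 5.52 and 4.93 to 6.34 and 6.19 (1.04, adjusted p = 0.00474). The SHI1 call was lost without DMSO replicate 2 or treated replicate 1. These were the lines where its untreated readings were intermediate, with 7.39 and 7.08 in SKM1 and 2.33 or less in the other 4 lines. The only ZNF829 probe set is of the type marked as prone to cross-hybridisation. ZNF493 had the largest rise in SHI1, from 7.22 and 6.66 to 8.52 and 8.23 (1.43, adjusted p = 0.00154), but 2 of its 3 further probe sets had a value below 0 there. ZNF542P, a pseudogene, read 3.30 and 4.06, then 4.76 and 4.87 in SHI1 (1.13, adjusted p = 0.0266), a call lost without DMSO replicate 1 or without either treated array. In NOMO1, ZNF850 rose by 1.09, ZNF606 by 1.00 and ZNF582-DT by 0.84, of which ZNF850 ranged from 0.71 to 1.47 with its call lost without DMSO replicate 2 or treated replicate 1, and ZNF606 lost its call without any 1 of the 4 arrays. In THP1, ZNF223 rose by 0.99 after these larger rises, a call lost without DMSO replicate 1 or either treated array. In GDM1 the rises were of at most 0.86, for ZNF329, followed by ZNF555 at 0.75 and ZNF350 at 0.75, whose adjusted p of 0.0498 crossed 0.05 in 27 of 39 alternatives. ZNF329 was at 0.33 and not called without DMSO replicate 2 and at 1.39 without DMSO replicate 1, and ZNF555 kept its call.

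Calls shared by several lines were few. At least 1 line had a rise in 78 of the 182 members (background 32.4%), and for 50 of them it was exactly 1 line. Rises in 3 or more lines were found for 9 members (4.95%, background 6.06%): ZNF536, ZNF570, ZNF226, ZNF227 and ZNF580 in 3, ZNF582-DT, ZNF264 and ZNF211 in 4, and ZNF274 in 6. Every single-line call of ZNF536, ZNF570 and ZNF580 was lost without at least 1 array of that line. So were the call of ZNF226 in NOMO1 and those of ZNF227 in GDM1 and NOMO1. ZNF211 rose by 1.07 in MOLM13, 0.73 in NOMO1, 0.71 in GDM1 and 0.55 in SKM1 (not called without DMSO replicate 1), with an average of 0.54 ± 0.05 that was called with lines as units too. ZNF222, at 0.50 on average, also kept its call with lines as units, although it was called on its own in MOLM13 alone (1.12). Its only probe set is of the type marked as prone to cross-hybridisation. Further average rises were those of ZNF137P (0.69), ZNF350 (0.56), ZNF850 (0.54), ZNF264 (0.53), ZNF585A (0.52), ZNF585B (0.45) and ZNF91 (0.44). None of these 7 was called with lines as units.

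Falls were fewer and smaller. ZNF556 had the largest, in MOLM13, where its DMSO arrays read 9.00 and 8.39 and its treated arrays 7.01 and 6.48 (-1.95 ± 0.16 SE, adjusted p = 1.89e-07). In THP1 it went from 8.83 and 8.77 to 8.16 and 8.06 (-0.69, adjusted p = 0.0103, not called without DMSO replicate 1 or treated replicate 2). These were the 2 lines that expressed it; in the other 5, all DMSO arrays read 3.35 or 3.36, so a fall could not be measured there. Its average of -0.35 was not called without MOLM13 or with lines as units. The SE of its MOLM13 fall pools all 14 groups, and the probe set was flat in 4 lines, which lowers it. That call was lost when MOLM13 was fitted on its own 4 arrays. ZNF584 fell more evenly, with an average of -0.59 ± 0.09 (adjusted p = 5.44e-05) and values below 0 in all 7 lines. GDM1 went from 8.37 and 8.31 to 7.45 and 7.47, and MOLM13 from 9.21 and 9.31 to 8.47 and 8.68. The SKM1 duplicates of ZNF584 were far apart, at 6.28 and 7.47 under DMSO and 5.76 and 6.26 under the inhibitor, where the treated arrays both lay below the DMSO arrays by a narrow margin. Its MOLM13 call was lost without any 1 of that line's arrays, the GDM1 call without DMSO replicate 1 or treated replicate 1, and the SKM1 call without DMSO replicate 2 or treated replicate 1. ZNF473, whose protein takes part in histone pre-mRNA 3′ end processing, had an average of -0.46 ± 0.11 (adjusted p = 0.00208) and was below 0 in all 7 lines, without a call in any single line. ZNF57 fell by 0.30 on average and was called in 4 lines, and ZNF584 and ZNF444 in 3. These were the 3 members with falls in 3 or more lines (1.65%, background 8.86%), and 30 of the 182 fell in at least 1 line (background 37.3%). All 3 ZNF444 calls, and those of ZNF57 outside SKM1, were lost without at least 1 array of their line. ZNF324, next to ZNF584 among the members nearest the end of the chromosome, fell by 0.30 on average, a call lost with lines as units. ZNF30 had an average of -0.45, not called without THP1 or with lines as units. The largest fall in NOMO1 was that of ZNF358, from 6.57 and 6.62 to 5.29 and 5.70 (-1.10, adjusted p = 1.09e-04). Its only probe set is of the type marked as prone to cross-hybridisation. The largest falls in the remaining lines were ZNF681 in GDM1 (-1.03), ZNF426 in SKM1 (-0.92), ZNF583 in THP1 (-0.86), ZNF627 in SKNO1 (-0.40) and ZNF57 in SHI1 (-0.38). Each of these 5 lost its call without at least 2 of the 4 arrays of its line taken singly, and ZNF681 then ranged from -1.49 to -0.57 and ZNF426 from -1.31 to -0.54. ZNF426 and ZNF627 rose in MOLM13, by 1.09 and 0.41, and were 2 of the 6 members called in opposite directions in different lines.

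Along the chromosome the members were ordered by the RefSeq table and divided into 30 runs, a new run starting where more than 10 genes not named ZNF or ZFP intervened. The 11 runs with at least 5 members held 149 of them. In MOLM13, 13.7% of all genes rose and 15.4% fell. There the run from ZNF264 to ZNF8 near the long-arm end had 15 of 28 members higher (53.6%) and 0 lower, with a median change of 0.59. It holds ZNF586, ZNF550, ZNF530, ZNF264 and ZNF274. The run from ZNF283 to ZNF180 had 9 of 15 higher (60%), with a median of 0.61 and ZNF155 as its largest change. In the same line the other large runs had lower shares, though each was above the 13.7% of all genes. They had 6 of 19 between ZNF627 and ZNF791 (31.6%), 6 of 23 between ZNF565 and ZNF573 (26.1%), and 7 of 28 between ZNF577 and ZNF331 (25%). The short-arm run from ZNF554 to ZNF77 had 0 of 5 higher and 2 lower, ZNF556 and ZNF57.

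Among these 11 runs, other lines had other leaders. The run from ZNF264 to ZNF8 had 5 members higher in GDM1 (17.9%, against 13.3% of all genes) and 4 in NOMO1 (14.3%, against 4.21%). It had 3 each in SKM1 and THP1 (10.7%, against 14.1% and 5.4%), 2 in SHI1 (7.14%, against 2.52%) and 0 in SKNO1 (against 2.96%). In SKNO1 and SHI1 the highest median was instead that of the run from ZNF542P to ZNF71, at 0.55 and 0.39, which includes ZNF582-DT. In MOLM13 that run had 0 of 6 members higher (against 13.7% of all genes) and a median of 0.08. In THP1 the same run and that from ZNF577 to ZNF331 were highest, at 0.34 and 0.32. The 2 members beyond ZNF8, ZNF584 and ZNF324, fell on average, whereas 12 of the 28 in the run before them rose (42.9%) and 0 fell. Over all genes 23.2% rose and 28.6% fell on average. Members of a run share arrays and, through sequence similarity, possibly probes, so these shares are a description and were given no test.

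**Figure D4:**
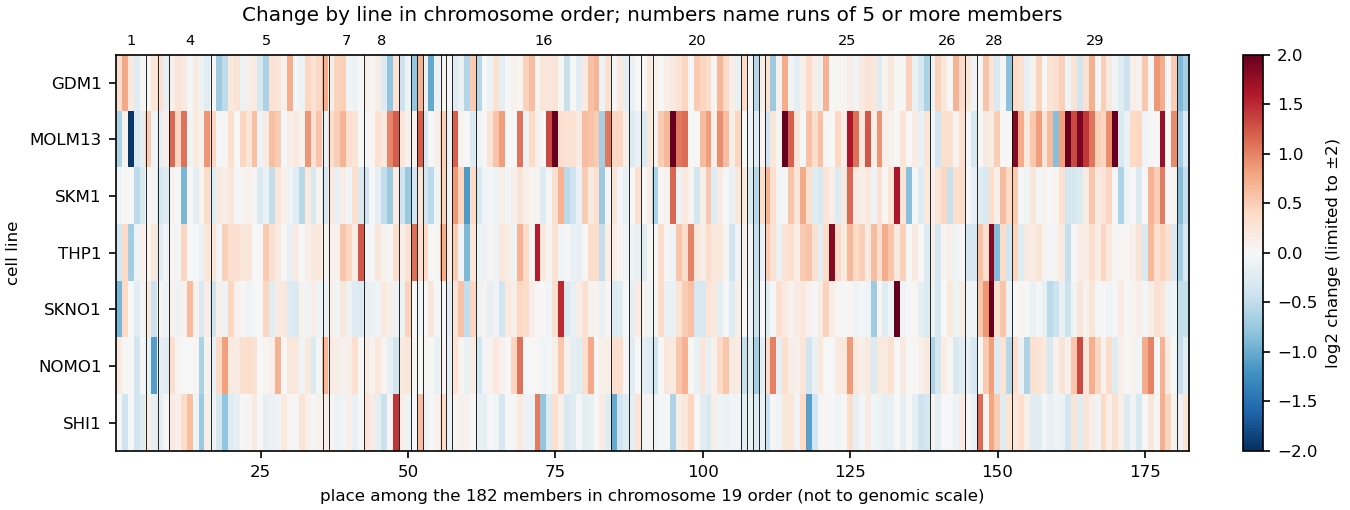
Log2 change with GSK3484862 (colour, limited to 2 in either direction) of the 182 members in chromosome 19 order from left to right, in places rather than bases, for each cell line; thin lines separate the 30 runs and numbers mark the 11 runs of 5 or more members. Dark red cells in MOLM13 are spread along the row and are most frequent in run 20 (ZNF283 to ZNF180) and run 29 (ZNF264 to ZNF8). In these, 9 of 15 and 15 of 28 members rose in MOLM13, against 13.7% of all genes.

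**Figure D5:**
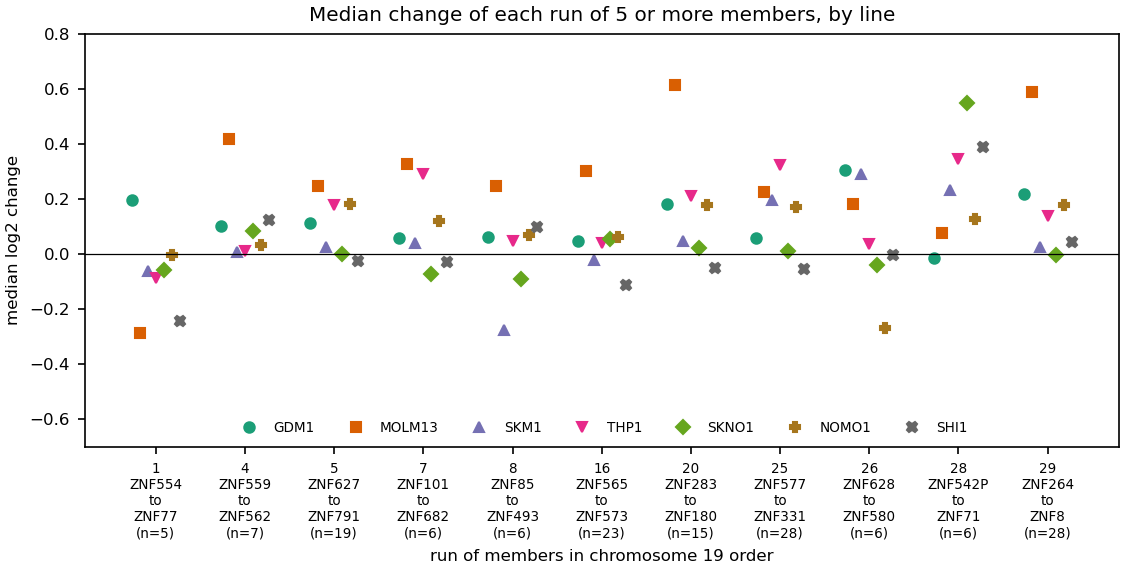
Median log2 change of each of the 11 runs of 5 or more members, by cell line (symbols), in chromosome order. MOLM13 is highest in runs 20 and 29, at 0.61 and 0.59, and lowest in run 1, at -0.29, while SKNO1 is highest in run 28, at 0.55.

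Of 37 measured genes in a list of 40 for the silencing machinery that KRAB zinc finger proteins act through, 4 rose on average (10.8%, against 23.2% of all genes) and 17 fell (45.9%, against 28.6%), with a median of -0.06. TRIM28 had an average of -0.09 ± 0.03 (adjusted p = 0.00511) and SETDB1 one of -0.01 (adjusted p = 0.727). The inhibited enzyme's own gene, DNMT1, had an average of -0.09 (adjusted p = 0.0070), and ATRX, a chromatin remodeller at heterochromatin, 0.01 (adjusted p = 0.819). The heterochromatin protein genes CBX5 and CBX1 fell by 0.39 and 0.22, and the H3 lysine 9 methyltransferase genes SUV39H2 and SUV39H1 by 0.35 and 0.33. The rises were in ATF7IP2 (0.24) and ATF7IP (0.19), which encode SETDB1 partners, and in MORC3 (0.20) and MORC2 (0.20). In GDM1, 1 of the 37 rose (2.7%, against 13.3% of all genes) and 14 fell (37.8%, against 20.5%), among them HELLS, a remodeller needed for DNA methylation, at -1.45 (adjusted p = 9.22e-05). In MOLM13, 1 rose (2.7%, against 13.7%), MORC2 (0.43), and 8 fell (21.6%, against 15.4%). SKM1 had 5 rises and 1 fall (13.5% and 2.7%, against 14.1% and 14% of all genes). THP1 had 0 and 3 (0% and 8.11%, against 5.4% and 8.3%). SKNO1 had 0 and 2 (0% and 5.41%, against 2.96% and 3.12%). NOMO1 had 0 and 1 (0% and 2.7%, against 4.21% and 7.55%). SHI1 had 1 and 0 (2.7% and 0%, against 2.52% and 0.899%).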

How the data were processed

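The authors deposited 1 table of log2 values for 27306 probe sets, with 1 column per array. How they were background-corrected, summarised, normalized and filtered is not given in the sources used here. The submitters' processing notes name limma. The values were used as they stood. Of the probe sets, 22580 had 1 gene symbol in the platform annotation, 1098 several and 3628 none. Each of 11676 genes was read from its probe set of highest mean.

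All 14 groups were fitted together with limma 3.58.1 in R 4.3.3 (14 residual and 2.28 prior degrees of freedom). Tested were the difference of GSK3484862 from DMSO per line, the mean of these 7 differences, and, by moderated F-test, whether they differed. Two-sided p-values were Benjamini-Hochberg adjusted across the 11676 genes, and an adjusted p under 0.05 made a call. Duplicates were checked: 0 pairs of arrays were identical. Replicate numbers were not treated as pairs. No batch information was used. The number of arrays limits the precision.

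Named genes were, among called members, the 12 largest average rises and 6 largest falls, the 3 largest rises and the largest fall in each line with treated arrays all on 1 side of the DMSO arrays, and the 4 smallest F-test p-values. Other genes named were chosen after their values were seen. The members and lists were chosen with earlier results of these data known. Tested on simulated data, the fit called 44 of 50 genes changed by 0.5 on average and 23 of 50 changed by 0.5 in MOLM13, with 7 and 8 false calls among 11476. That simulation gave each gene independent normal noise of equal SD in all groups and changed few genes. The real arrays had unequal spread and many more calls, so these counts do not carry over to them. Alternatives covered normalization, dim genes, probe sets, the variance model, a replicate block, single lines fitted alone, and arrays or lines left out. The comparison of each line with the other 6, and protein-coding members alone, were added after the data were seen.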

Additional observations from a re-analysis of the deposited data

Results flagged for a closer look

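The response differed between lines, by the moderated F-test in limma, for 49 members. The smallest adjusted p-values of that test were those of ZNF582-DT (8.15e-08), which rose most in SKNO1, and of ZNF550 (4.21e-06), ZNF559 (9.79e-06) and ZNF264 (1.70e-05), which rose most in MOLM13. ZNF559 went from 8.69 and 8.80 to 9.84 and 9.91 in MOLM13, a change of 1.13, and its changes in the other lines lay between 0.04 and 0.33. The calls of ZNF550, ZNF559 and ZNF264 in this test were lost with MOLM13 left out.

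Against the mean change of the other 6 lines, 38 members differed in MOLM13, 16 in GDM1, 10 in SKM1, 9 in SKNO1, 8 in SHI1 and 5 each in THP1 and NOMO1.

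Probe sets annotated with several symbols, 1 of them a chromosome 19 ZNF gene, were outside the comparisons. Of 17 such probe sets, 3 rose and 2 fell on average, while 18.4% of all 27306 probe sets rose.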

How the results depend on the processing

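None of the 50 named values reversed, and 10 kept their call in all settings run. The median change of the members in SKM1, 0.012, was -0.024 after quantile normalization and -0.028 with arrays centred, and that in SKNO1, -0.0011, was 0.013 and 0.029. With lines as units, 4 members rose and 3 fell on average, and with a limit of 2-fold 1 rose and 0 fell; 44 members had an unadjusted p under 0.05 with lines as units. The median change of 0.100 was 0.082 after quantile normalization, 0.103 without dim genes and 0.091 with the mean of all probe sets. It was 0.092 without GDM1, 0.050 without MOLM13, 0.118 without SKM1, 0.091 without THP1, 0.120 without SKNO1, 0.092 without NOMO1 and 0.120 without SHI1. The F-test gave 27 members without MOLM13. Without dim genes, which kept 105 members, calls were 18 in GDM1, 3 in SKNO1 and 4 in SHI1. Without the probe sets marked _x_at or _s_at they were 8 in THP1 and 4 in SHI1. Fitted on their own 4 arrays, MOLM13 had 36 called members and SKM1, THP1, SKNO1, NOMO1 and SHI1 had 0, where all genes had 2056, 53, 2, 0, 0 and 0 calls, a setting with fewer arrays to estimate the spread. With a limit of 2-fold, calls were 1 in GDM1, 26 in MOLM13, 5 in SKM1, 2 in THP1, 3 in SKNO1, 2 in NOMO1 and 3 in SHI1. For the other changes in this paragraph the cause was not tested.

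Leaving out 1 array at a time gave 51 to 62 average rises, 12 to 20 falls, a median of 0.086 to 0.118 and 44 to 62 members in the F-test. Calls ranged from 19 to 32 in GDM1, 41 to 62 in MOLM13, 20 to 31 in SKM1, 6 to 20 in THP1, 5 to 9 in SKNO1, 5 to 17 in NOMO1 and 3 to 8 in SHI1. With the replicate number as a block, 56 members rose and 17 fell on average, the F-test gave 51, and calls in single lines were 27 in GDM1, 60 in MOLM13, 30 in SKM1, 18 in THP1, 6 in SKNO1, 14 in NOMO1 and 7 in SHI1. The block was 1 term for the replicate number over all lines. The labels do not say what arrays of the same number share. Their deviations from the group means correlated at r = -0.10 to 0.39 across all genes, and above 0.1 in SKM1 (0.37), SKNO1 (0.39) and NOMO1 (0.31), so pairs within these lines were not accounted for.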
